A study of Homo sapiens with 38 samples.

Results

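Read-through loci are entries of the RNA table that join a pair of neighbouring genes under 1 name, such as BCL2L2-PABPN1. They were chosen by name: an identifier with 1 hyphen whose 2 parts are themselves entries of the table, listed once, and above 0 FPKM in at least 1 of the 8 libraries. FPKM, is a level of fragments scaled to transcript length and to the fragments mapped in the library. Of 107 such names, 7 were at 0 in all libraries, and 100 remained among 25504 entries with a unique name. These parts, called component genes here, numbered 198, since MUTED and RAB4B each belong to 2 loci. The choice used measured values only to drop the 7 names at 0.

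RKO cells, a human colorectal cancer line, were cultured for 30 or 4 days in medium with 0.1% DMSO as the vehicle. They received the vehicle alone (DMSO), the LSD1 inhibitor NCD38, or NCD38 joined to the pyrrole-imidazole polyamides P4 or PIPP (NCD38-β2P4, NCD38-β2PIPP), each at 2 µM by the labels. For the shorter treatment the study's methods print the dose in millimolar units instead, so it is uncertain. LSD1 is a histone demethylase, and such polyamides bind short DNA sequences in the minor groove. Each of the 8 conditions had 1 library of poly(A) RNA, so no difference between 2 single libraries carries a replicate check. All values are from a single cell line.

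A read-through transcript arises when RNA polymerase passes the cleavage and polyadenylation site of an upstream gene and carries on into the next gene on the same strand, and splicing then joins exons of both. Gene catalogues list some of these transcripts as loci of their own, although nearly all of their exons also belong to a component gene. A short sequencing fragment inside a shared exon fits more than 1 entry, and Cufflinks divides such fragments among the overlapping transcripts by likelihood, and every level of a locus below depends on that division.

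In the GENCODE annotation on GRCh37, 78 of the 100 loci and both their component genes could be matched by name. All 78 lay on the strand of both component genes, and 77 in the order of the name, with POC1B-GALNT4 the exception. The distance between the component genes had a median of 3262.5 nt; 7 pairs overlapped, 51 lay within 10 kb and 20 were farther apart. A median of 97.3% of a locus's exonic bases lay in exons of its component genes (range 29.8% to 100%), and 27 loci had no exonic base of their own. RefSeq classed 57 of the 100 loci as protein coding and 42 as lncRNA, and 1 had no class.

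What sets a read-through transcript apart is the junction that joins its component genes, which is absent from both component genes. Such a junction was found for 73 loci. Its 30 bases occurred in no transcript of a component gene. This was largely set in advance, since the search passed over junctions annotated in a component gene. For 71 loci the 30 bases occurred in no transcript of any other gene. SLX1A-SULT1A3 and SLX1B-SULT1A4, near-identical copies, shared theirs, so the levels of these 2 loci are uncertain. The junctions of loci on which the results below turn are shown from GENCODE transcripts, 5′ to 3′ on the strand of the gene, with the last 15 bases of the upstream exon in lower case and the first 15 of the downstream exon in capitals.
BCL2L2-PABPN1: agcagtgggggctggGAGCTGGAAGCTATC
ABHD14A-ACY1: cccttgaccttccagCTCACCACGCGCAGC
HNRNPUL2-BSCL2: caatacaatcgggatGGACCCTCCATTTTC
RPS10-NUDT3: accgaattccagtttGTGCTACTCGTGAGC
RBM14-RBM4: gtgacgtggtgaaagGCTCTTGTCAGGATG
ISY1-RAB43: cagaaggctcctgggCTGCAGATCTGGGAC
CHURC1-FNTB: tagttacctatgatcGCAAAAGTAGAAGAA
COMMD3-BMI1: atggaacaattacagGATTTTTTATCAAGC

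The table lists no counts of reads over these junctions, so how far the levels that follow rest on such reads is unknown. The BCL2L2-PABPN1 junction joins an exon that ends at position 23777408 of chromosome 14 (plus strand) to one that starts at 23791390, over an intron of 13981 nt. On the plus strand too, that of CHURC1-FNTB runs from 65390844 to 65470967 of chromosome 14, that of ABHD14A-ACY1 from 52012390 to 52018063 of chromosome 3, that of RBM14-RBM4 from 66384528 to 66407171 of chromosome 11 and that of COMMD3-BMI1 from 22607947 to 22615360 of chromosome 10. On the minus strand, the junction of HNRNPUL2-BSCL2 runs from 62482972 to 62474796 of chromosome 11, that of RPS10-NUDT3 from 34386146 to 34309749 of chromosome 6 and that of ISY1-RAB43 from 128848931 to 128814012 of chromosome 3. The introns so spanned reach from 5672 nt in ABHD14A-ACY1 to 80122 nt in CHURC1-FNTB.

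The loci were listed at low levels. The median over loci of the mean FPKM was 0.503, against 4.11 for the component genes. The highest value in any library was at least 10 FPKM for 14 loci, 1 to 10 for 38, 0.001 to 1 for 39 and under 0.001 for 9. A single fragment on a transcript of 10000 nt among 100000000 fragments would give 0.001 FPKM, so a value above 0 and below it, a trace value here, is less than a whole fragment at that length and depth. The loci just inside the rule were of that kind: LY75-CD302 reached at most 1.12e-90 FPKM and NEDD8-MDP1, the highest of the 9, 0.000488. Just outside it were the 7 at 0: APOC4-APOC2, CCL14-CCL15, GIMAP1-GIMAP5, HSPB2-C11orf52, KLRC4-KLRK1, MAGEA10-MAGEA5 and SPINLW1-WFDC6.

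Trace values made up 25.9% of the 800 values of the loci. They were 5.53% of the 1520 values of the 190 component genes above 0 in at least 1 library and 0.959% of those of the other 17686 entries above 0 in at least 1 library. At least 1 trace value occurred in 58 loci, and 16 loci were at a trace or 0 in some library while reaching 1 FPKM in another. In 58 loci the mean FPKM was below that of both component genes, in 38 it lay between them and in 4 it exceeded both (BCL2L2-PABPN1, C8orf44-SGK3, CHURC1-FNTB and FAM18B2-CDRT4).

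Of loci that RefSeq classes as protein coding, 33 (57.9%) reached 1 FPKM in some library, and of the lncRNA class 19 (45.2%). The median of the mean FPKM was 0.756 and 0.357. These are levels of the listed entries and get no test.

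BCL2L2-PABPN1 had the highest mean of all loci, 91.6 FPKM. BCL2L2 encodes the anti-apoptotic protein Bcl-w, and PABPN1 the nuclear poly(A)-binding protein that governs tail length. On day 30 the locus was listed at 140 FPKM in DMSO, 132 in NCD38, 117 in NCD38-β2P4 and 112 in NCD38-β2PIPP, and on day 4 at 62.2, 49.4, 60.0 and 59.9 in the same order. It lay above both component genes in every library: BCL2L2 ranged from 4.04 to 11.3 FPKM and PABPN1 from 6.51 to 15.9. Of the summed FPKM of the 3 entries, 75.8% to 88.2% was listed under the locus. Its exonic bases were shared with BCL2L2 for 34.4% and with PABPN1 for 61.1%.

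The next loci by mean were SLMO2-ATP5E (27.1 FPKM) and TM4SF19-TCTEX1D2 (19.5), followed by RBM14-RBM4, C17orf61-PLSCR3, HNRNPUL2-BSCL2, ABHD14A-ACY1, RPL36A-HNRNPH2, NME1-NME2 and ATP5J2-PTCD1 (7.84). Several of them sit beside far more abundant component genes. ATP5E and ATP5J2, subunits of mitochondrial ATP synthase, ranged from 349.7 to 1333 and from 651.0 to 1084 FPKM. NME1 and NME2, nucleoside diphosphate kinases, ranged from 481.6 to 687.9 and from 1491 to 1954 FPKM, while their joint locus was listed at 4.72 to 18.2 FPKM.

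**Figure D1:**
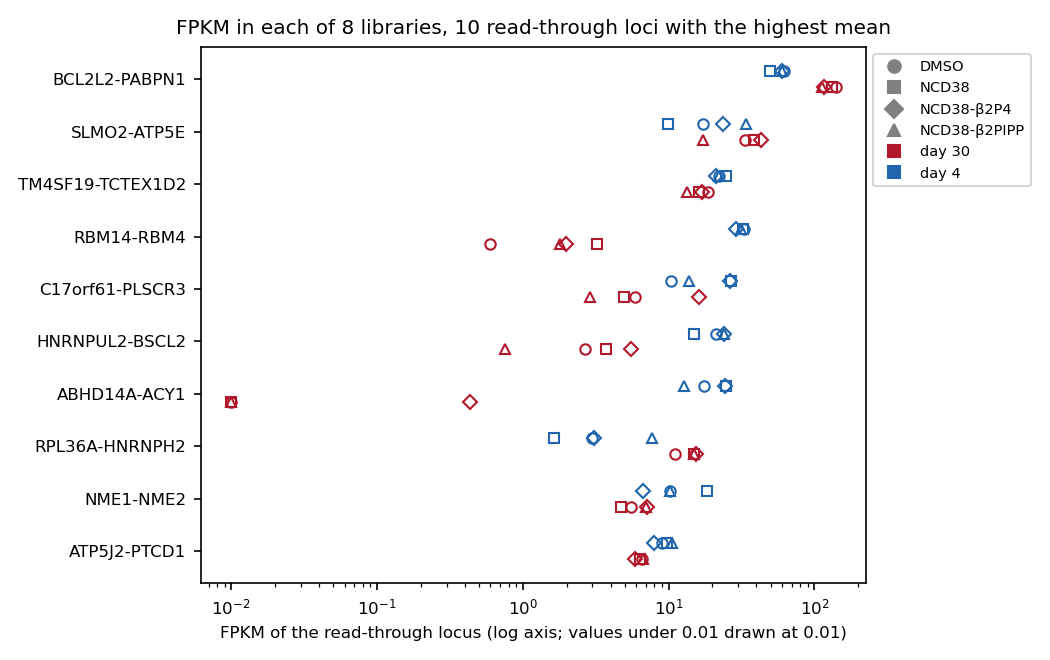
FPKM (log axis) of the 10 read-through loci with the highest mean in each of the 8 libraries, with day 30 in red, day 4 in blue and the treatment as the shape; values under 0.01 are drawn at 0.01. RBM14-RBM4, HNRNPUL2-BSCL2, ABHD14A-ACY1, TM4SF19-TCTEX1D2 and ATP5J2-PTCD1 have every day 30 level below every day 4 level (33.1% of all entries tested). BCL2L2-PABPN1 and RPL36A-HNRNPH2 separate the other way (29.5%).

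The number of loci with at least 1 FPKM was 26 to 31 in the day 30 libraries and 35 to 38 in those of day 4. The libraries' FPKM summed to between 677739 and 822230 over all entries. The epithelial markers KRT8, KRT18 and CDX2 were listed at 6.58 FPKM or more in all libraries, KRT19 and CDH1 under 0.5 and VIL1 at 0. EPCAM separated the days, at 3.94 to 6.53 FPKM on day 30 and 0.0922 to 0.867 on day 4, and its part in the day results was not tested. Each of the 7 markers of blood, endothelial and stromal cells was at 0.0152 FPKM or less. The sources used here do not say whether the libraries of both days share a culture or a sequencing run, so the day cannot be told apart from these. Over the 9152 expressed entries with a known transcript sequence, the DMSO ratio of day 30 to day 4 had a Spearman correlation with GC content of -0.646, over genes that share both libraries. For the ratios to DMSO of the same day it was -0.169, -0.506 and -0.0265 on day 30 and 0.569, -0.526 and -0.674 on day 4, for NCD38, NCD38-β2P4 and NCD38-β2PIPP. The part of GC content in the results for the loci was not tested.

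The day comparison asked which loci were listed at different levels on day 30 and day 4. It was fitted with limma on log2(FPKM + 1) with treatment and day as additive terms over all 10865 entries with a mean of at least 1 FPKM. The fit leaves 3 residual degrees of freedom, takes the day difference to be equal in the 4 treatments, and gives differences that are understated for low levels. Only 36 of the 100 loci had that mean and entered it, and 64 did not. Of the 36, 27 passed at an adjusted p below 0.05, 7 higher and 20 lower on day 30. Among all entries tested 62.0% passed, 30.2% higher and 31.7% lower. The median difference (day 30 minus day 4) of the 36 loci was -0.68 on the log2 scale, that of all entries -0.02. In bulk RNA, fewer cells with a transcript and less of it per cell cannot be told apart.

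When each locus was replaced by the sum of its FPKM and that of both component genes, a choice made after seeing the data, 11 sums passed as higher and 10 as lower. The median absolute difference was 1.28 for the 36 loci, 0.59 for their sums and 0.81 for all entries. Among the 27 loci that passed, the sum passed in the same direction for 13, in the opposite direction for 3 (ARPC4-TTLL3, FAM18B2-CDRT4 and TRIM39-RPP21) and did not pass for 11. A sum in which a component gene is far above the locus follows that gene, and a sum of FPKM is not a sum of fragments, since the entries differ in length. Over the 8 libraries, the range of log2(FPKM + 1) had a median of 2.11 for the loci of at least 1 FPKM, 1.49 for the 141 component genes of that level and 1.46 for all expressed entries.

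**Figure D2:**
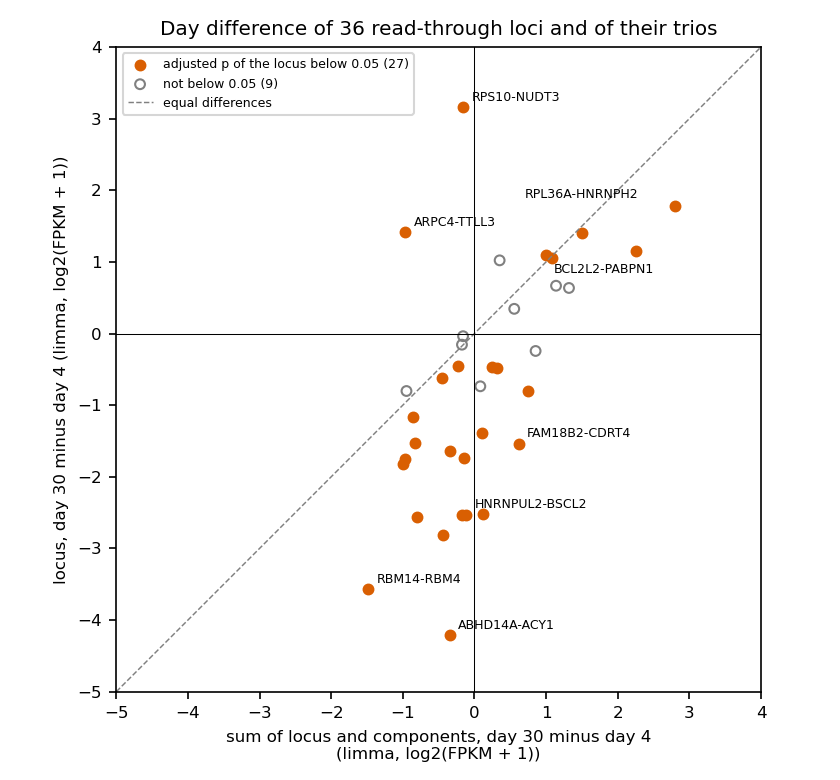
Day 30 minus day 4 difference on log2(FPKM + 1) of 36 read-through loci (vertical axis) against that of the sum of locus and component genes (horizontal axis), with filled points for the 27 loci at an adjusted p below 0.05. Many loci lie far below the dashed line of equal differences near a sum difference of 0, and RPS10-NUDT3 and ARPC4-TTLL3 lie far above it.

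ABHD14A-ACY1 had the smallest limma p for day of the loci. ACY1 encodes aminoacylase 1, which frees amino acids from their acetylated forms, and ABHD14A an alpha/beta-hydrolase domain protein. The locus was listed on day 30 at 5.12e-16 FPKM in DMSO, 9.12e-15 in NCD38, 0.432 in NCD38-β2P4 and 1.65e-14 in NCD38-β2PIPP, and on day 4 at 17.4, 24.6, 24.6 and 12.8. All 4 values of day 4 were thus above all those of day 30, and the day difference was -4.21 (SE 0.179, limma adjusted p = 0.000274). The locus had the mean needed for the fit only through day 4. Values near 0 have little spread on log2(FPKM + 1), so the SE and p are not evidence of a well-measured day 30 level. ABHD14A ranged from 30.3 to 53.1 FPKM and ACY1 from 18.6 to 37.8 over the 8 libraries. Their day differences were -0.03 (limma adjusted p = 0.896) and 0.12 (adjusted p = 0.749), and that of the sum was -0.34 (adjusted p = 0.249).

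RBM14-RBM4 joins genes of RNA-binding proteins, of which RBM4 regulates splicing. It was listed at 0.594, 3.24, 1.98 and 1.79 FPKM on day 30 and at 33.1, 32.5, 29.2 and 31.2 on day 4, in the order DMSO, NCD38, NCD38-β2P4, NCD38-β2PIPP, which is kept below. Here both component genes were lower on day 30 as well. The day difference was -3.57 for the locus (SE 0.256, limma adjusted p = 0.000634), -1.59 for RBM14 (adjusted p = 0.000715) and -0.98 for RBM4 (adjusted p = 0.00231). Its sum followed with -1.48 (adjusted p = 0.000821).

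The other 3 of the 5 smallest p-values for day were lower on day 30 too. INO80B-WBP1, whose upstream gene encodes a subunit of the INO80 chromatin remodeller, held trace values of 8.75e-05 to 0.000188 FPKM on day 30 and 2.82 to 6.29 on day 4 (difference -2.53, limma adjusted p = 0.000661). SYS1-DBNDD2 was listed at 0.323 to 0.577 FPKM on day 30 and 6.12 to 10.1 on day 4 (difference -2.51, adjusted p = 0.00053). UBE2F-SCLY joins a NEDD8-conjugating enzyme and selenocysteine lyase, and was at trace values in 3 day 30 libraries, at 0.264 FPKM in NCD38-β2P4 and at 2.05 to 3.29 on day 4 (difference -1.74, adjusted p = 0.000634). These 3 loci too had the mean needed for the fit only through day 4. The sums of their trios differed by -0.17, 0.12 and -0.14, none with an adjusted p below 0.05.

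RPS10-NUDT3 went the other way. RPS10 encodes a protein of the small ribosomal subunit, and NUDT3 a Nudix hydrolase. The locus was listed at 12.2, 4.01, 11.0 and 10.2 FPKM on day 30 and on day 4 at 0.367 FPKM in DMSO and at trace values in the other 3 libraries. The day groups did not overlap, and the difference was 3.17 (SE 0.244, limma adjusted p = 0.000683). This locus had the mean needed for the fit only through day 30. NUDT3 ranged from 14.3 to 24.8 FPKM and RPS10 from 2079 to 3226, with day differences of 0.15 (adjusted p = 0.514) and -0.17 (adjusted p = 0.413). Of the exonic bases of the locus, 85.4% were shared with NUDT3.

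The other loci higher on day 30 included BCL2L2-PABPN1 (1.10, SE 0.144, limma adjusted p = 0.00207) and RPL36A-HNRNPH2 (1.77, adjusted p = 0.00441). RPL36A, a gene of the large ribosomal subunit, was itself at 2297 to 2850 FPKM on day 30 and 229.3 to 478.6 on day 4. All 4 day 30 libraries were above all 4 day 4 libraries for 5 of the 36 loci (29.5% of all entries tested), and below them for 20 (33.1%).

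Where the component genes could be tested as well, some went apart from the locus. For the 27 loci that passed, the upstream gene passed in 17 and had the opposite sign in 6 of these, and the downstream gene passed in 13 of 25 tested with the opposite sign in 4. As 62.0% of all entries passed, these counts are no result about the component genes. Of the 141 component genes tested, 59 were higher on day 30 (30.2% of all entries) and 27 lower (31.7%).

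In HNRNPUL2-BSCL2 the locus and its downstream component gene were listed at opposite levels. HNRNPUL2 encodes an RNA-binding protein, BSCL2 seipin, which acts in lipid droplet formation. Every exonic base of the locus is shared, 59.8% with HNRNPUL2 and 40.2% with BSCL2. The locus was listed at 2.69, 3.72, 5.55 and 0.757 FPKM on day 30 and at 21.2, 15, 23.9 and 24.1 on day 4. BSCL2 was at 11.8, 6.32, 5.67 and 14.1 FPKM on day 30 and at 0.755, 11.5, 1.01 and 1.06 on day 4. Thus the NCD38 library of day 4 had the lowest level of the locus on that day and the highest of BSCL2, and on day 30 the NCD38-β2PIPP library had the lowest level of the locus and the highest of BSCL2. The sum of the 3 entries stayed between 31.3 and 40.9 FPKM over all 8 libraries. Whether the transcripts or the division of fragments among them differed was not tested. The day difference was -2.53 for the locus (limma adjusted p = 0.00291), 0.89 for HNRNPUL2 (adjusted p = 0.0348), 1.68 for BSCL2 (adjusted p = 0.0713) and -0.12 for the sum (adjusted p = 0.462).

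The share of the trio's FPKM listed under the locus gives the same view for all loci. Over the 73 loci whose trio summed to at least 1 FPKM in all 8 libraries, the median share was 0.759% to 1.69% in the day 30 libraries and 1.74% to 3.28% in those of day 4. Of the 48 of them that also reached 1 FPKM in at least 1 library, 38 had the higher median share on day 4 and 10 on day 30. A locus could enter the 48 through the libraries of 1 day alone. A share also falls when a component gene rises. These counts are thus no result about the loci. The share of the 48 loci ranged over the 8 libraries by a median of 10.8 percentage points, by at least 25 points in 13 loci and by under 5 in 16.

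FAM18B2-CDRT4 had the widest range. Its share was 13.1%, 20.5%, 7.85% and 3.17% on day 30 and 78.8%, 79.9%, 64.3% and 83.7% on day 4. CDRT4 was at 3.36 to 6.82 FPKM on day 30, and on day 4 at 0.000347, 0.00116, 0.714 and 0.00543. The day difference was -1.54 for the locus (limma adjusted p = 0.0142) and 0.62 for the sum (adjusted p = 0.0391). The locus did not pass when a DMSO library (-1.54) or an NCD38-β2P4 library (-1.47) of either day was left out.

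IQCJ-SCHIP1, PRH1-PRR4, HNRNPUL2-BSCL2, ISY1-RAB43, APITD1-CORT, EEF1E1-MUTED and CHURC1-FNTB followed. In ISY1-RAB43, a splicing factor gene and a small GTPase gene, the share was 2.35%, 7.83%, 11.6% and 3.12e-23% on day 30 and 50.7%, 48.0%, 49.6% and 54.8% on day 4. The locus fell by 2.82 on the log2 scale from day 4 to day 30 (limma adjusted p = 0.00163) while ISY1 was higher by 0.99 (adjusted p = 0.0158). IQCJ-SCHIP1 had a share of 22.5% to 37.7% on day 30 and 69.4% to 86.6% on day 4, but its own difference between the days was -0.24 (adjusted p = 0.472), and it passed when an NCD38 library was left out (-0.55).

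In CHURC1-FNTB the component genes moved in opposite directions, as they did in other trios, such as ARPC4-TTLL3 and PMF1-BGLAP. FNTB encodes the beta subunit of protein farnesyltransferase, and CHURC1 a zinc finger protein. CHURC1 was higher on day 30 by 2.09 (limma adjusted p = 0.0006) and FNTB lower, with a difference of -1.97 (adjusted p = 0.0011), while the locus differed by -0.47 (adjusted p = 0.029) and the sum by 0.25 (adjusted p = 0.135). The locus was listed at 5.28 to 6.58 FPKM on day 30 and 7.30 to 9.55 on day 4. It did not pass without a DMSO (-0.49), NCD38-β2P4 (-0.38) or NCD38-β2PIPP library (-0.48).

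PRH1-PRR4, APITD1-CORT and EEF1E1-MUTED had mean levels of the locus under 1 FPKM and were not in the fit. Their shares overlapped between the days: 5.49% to 25.9% against 15.1% to 69.1%, 0.374% to 6.15% against 5.07% to 49.4%, and 1.69% to 7.67% against 1.03% to 42.9%.

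**Figure D3:**
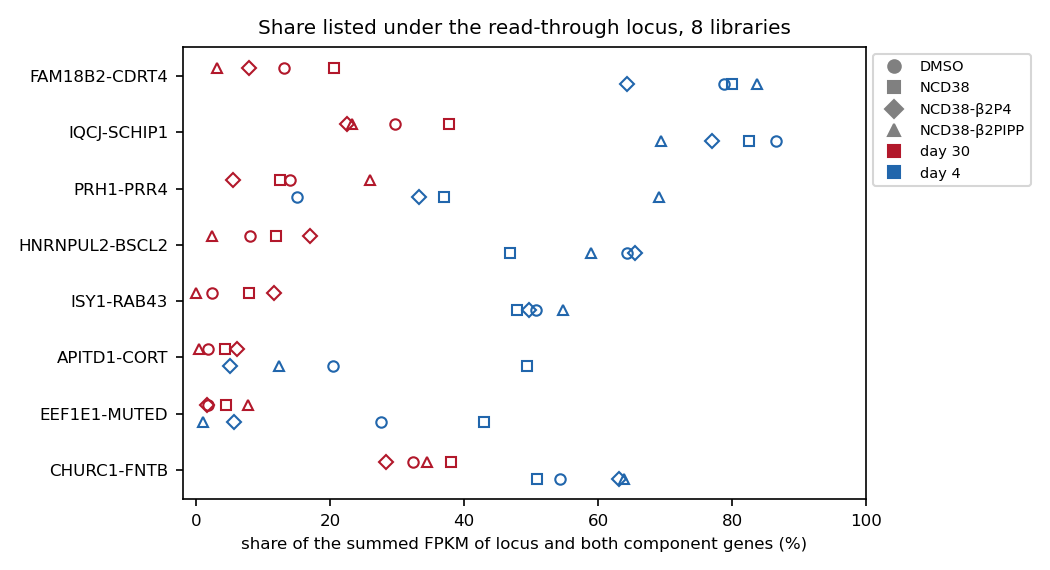
Share (%) of the summed FPKM of locus and both component genes that was listed under the locus, in each library, for the 8 loci with the widest range; day 30 in red, day 4 in blue, treatment as the shape. For 5 of the loci, FAM18B2-CDRT4, IQCJ-SCHIP1, HNRNPUL2-BSCL2, ISY1-RAB43 and CHURC1-FNTB, all day 4 shares lie above all day 30 shares. The 8 were picked by the range of these same shares, so the count of 5 is no rate for all loci. Among all entries tested, 33.1% had every day 30 level below every day 4 level, but this is for levels of single entries and not for shares.

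A locus and a component gene that differ at least 2-fold in opposite directions were counted next, on log2(FPKM + 1), in 7 pairs of single libraries: each inhibitor against the DMSO library of its day, and DMSO on day 30 against day 4. There were 14 such opposite moves, in 13 loci. In 11 the component was the downstream gene and in 3 the upstream gene. The members share fragments with their component genes and the comparisons of a day share its DMSO library, so these counts carry no test. They depend on the pseudocount. With 0.1 in place of 1 the inhibitor comparisons below gave 35 in place of 6 and the DMSO libraries 19 in place of 8. Of all entries with a mean of at least 1 FPKM, 24.1% were 2-fold higher and 17.3% 2-fold lower between the DMSO libraries. Opposite moves thus also arise between entries that share no fragments. How many of the moves counted here depend on shared fragments was not tested.

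Between the DMSO libraries there were 8 opposite moves. HNRNPUL2-BSCL2 differed by -2.59 from day 4 to day 30 and BSCL2 by 2.87. In PMF1-BGLAP, a kinetochore gene joined to the osteocalcin gene, the locus differed by -2.15 and BGLAP by 2.52: the locus was at 6.65e-77 FPKM in DMSO on day 30 and 3.44 on day 4, BGLAP at 4.73 and 3.25e-27. BGLAP held trace values in all 4 day 4 libraries and 1.84 to 4.73 FPKM in those of day 30. TMEM110-MUSTN1 (-1.93) and MUSTN1 (1.42), FAM18B2-CDRT4 (-1.54) and CDRT4 (2.40), and GPR75-ASB3 (-1.45) and ASB3 (1.56) went the same way.

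In MUTED-TXNDC5 (-1.61) and RBAK-LOC389458 (-1.45) the partner was the upstream gene, MUTED (1.56) and RBAK (1.46). ARPC4-TTLL3 was the single locus of the 8 that was higher on day 30, by 1.43, with ARPC4, a subunit of the Arp2/3 actin-nucleating complex, at -1.18. In the fit over all libraries ARPC4-TTLL3 differed by 1.41 (limma adjusted p = 0.0016), ARPC4 by -1.08 (adjusted p = 0.00169) and TTLL3, a tubulin glycylase, by 1.39 (adjusted p = 0.00135). PMF1-BGLAP and TMEM110-MUSTN1 differed there by -1.53 (adjusted p = 0.00222) and -1.75 (adjusted p = 0.000729), with BGLAP at 2.13 and MUSTN1 at 1.29 (adjusted p = 0.000938 and 0.000981).

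Inhibitor against DMSO gave 6 opposite moves in 5 loci. C17orf61-PLSCR3 made 2 of them, both in NCD38-β2P4. C17orf61 encodes a small membrane protein now named TMEM256, and PLSCR3 a phospholipid scramblase of mitochondria, which shares 84.6% of the exonic bases of the locus. The locus was listed at 5.88, 4.95, 16.1 and 2.90 FPKM on day 30 and at 10.4, 26.7, 26.2 and 13.9 on day 4. PLSCR3 was listed at 23.1, 17.1, 10.4 and 25.2 FPKM on day 30 and at 26.7, 24.5, 10.7 and 20.7 on day 4, so that NCD38-β2P4 was its lowest library on both days. Against DMSO of the same day the locus differed by 1.31 and 1.26 and PLSCR3 by -1.08 and -1.24, with the sum at -0.03 and -0.40. Over both days the limma difference between NCD38-β2P4 and DMSO was 1.28 for the locus (unadjusted p = 0.0342) and -1.16 for PLSCR3 (unadjusted p = 0.00349), each with an adjusted p of 1. The locus is described here for its opposite moves in these same libraries, so the unadjusted p-values are no separate support. No joining junction was obtained for it. In NCD38 on day 4 the locus was likewise above DMSO, by 1.28, with PLSCR3 at 24.5 against 26.7 FPKM.

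The other 4 loci were COMMD3-BMI1 and EEF1E1-MUTED in NCD38-β2PIPP on day 30, TMED7-TICAM2 in the same comparison and JMJD7-PLA2G4B in NCD38 on day 4. BMI1, a Polycomb group gene, was at 4.86 FPKM in DMSO on day 30 and 1.56 in NCD38-β2PIPP, while COMMD3-BMI1 was at 1.48 and 4.20. PLA2G4B, a phospholipase A2 gene, was at 1.41 FPKM in DMSO on day 4 and 0.00645 in NCD38, and JMJD7-PLA2G4B at 0.0141 and 1.85. MUTED was at 1.96 FPKM in DMSO on day 30 and 0.00101 in NCD38-β2PIPP, and EEF1E1-MUTED at 0.596 and 2.44. TMED7-TICAM2, which the rule for named loci did not reach and which was added after its values were seen, was at 1.51 and 0.245 FPKM, and TICAM2, an adaptor of Toll-like receptor 4, at 0.000142 and 1.31.

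With the DMSO library of its day as the reference, a 2-fold difference was found for 5 of the 36 loci in NCD38 on day 30 (1.66% of all entries tested), 3 in NCD38-β2P4 (1%) and 4 in NCD38-β2PIPP (1.17%). On day 4 it was found for 6 in NCD38 (5.41%), 3 in NCD38-β2P4 (1.91%) and 2 in NCD38-β2PIPP (11.2%), and between the DMSO libraries of the 2 days for 20 (41.4%). The median log2 ratio of the 36 loci against DMSO lay between -0.05 and 0.13 in the 6 inhibitor comparisons, and that of all entries between -0.21 (NCD38, day 4) and 0.17 (NCD38-β2PIPP, day 4).

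On day 30 the 5 loci in NCD38 were COMMD3-BMI1, MUTED-TXNDC5, PMF1-BGLAP and RBM14-RBM4, which were higher, and RPS10-NUDT3, which was lower. MUTED-TXNDC5 and C17orf61-PLSCR3 were higher in NCD38-β2P4 on both days. TXNDC5 encodes a protein disulfide isomerase and was at 66.4 to 168 FPKM, while MUTED-TXNDC5 was listed at 0.00371, 2.05, 2.56 and 0.313 FPKM on day 30 and at 2.06, 8.81e-18, 6.49 and 4.77 on day 4. The shared DMSO library of day 30 held the lowest level of that day for MUTED-TXNDC5, PMF1-BGLAP, COMMD3-BMI1 and RBM14-RBM4.

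Over all 100 loci and the 6 inhibitor comparisons, 600 pairs in all, a locus differed 2-fold in 29, in 20 loci. In 28 of the 29 the sum of the trio differed by less than 2-fold, with a median absolute log2 ratio of the sum of 0.18. The exception was BIVM-ERCC5 in NCD38-β2PIPP on day 4, whose sum was higher by 1.26. Between the DMSO libraries 23 loci differed 2-fold, 17 of them with a sum that differed by less. The median share of a trio's FPKM listed under the locus had a median of 1.51% over loci. A sum made mostly of component genes changes little with the locus, so these counts of sums are no result about the loci. Of all entries with a mean of at least 1 FPKM, 1% to 11.2% differed 2-fold in the inhibitor comparisons and 41.4% between the DMSO libraries. TNFAIP8L2-SCNM1, named after its values were seen, had the largest log2 ratio of the 29. It was listed at 5.47, 3.59, 4.53 and 0.0592 FPKM on day 30 and 0.00500, 2.15, 2.03 and 0.0690 on day 4, with TNFAIP8L2 listed at 0 in all libraries and SCNM1 between 9.84 and 15.1 FPKM.

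With both days in the additive fit, 0 of the 36 loci passed against DMSO in limma for NCD38, NCD38-β2P4 or NCD38-β2PIPP (0.0368%, 0.0184% and 0.0184% of all entries passed). At an unadjusted p below 0.05 there were 2, 1 and 0 loci (1.12%, 0.304% and 0.663% of all entries): NDUFC2-KCTD14 and RPS10-NUDT3 in NCD38 and C17orf61-PLSCR3 in NCD38-β2P4. The fit takes the difference to be equal on both days.

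Factors that end transcripts or remove aberrant ones were examined as a list beside the loci. Of 20 cleavage and polyadenylation factors, 6 were higher and 5 lower on day 30 in the limma fit, with a median difference of 0.20. CPSF3, the endonuclease of the cleavage complex, was higher by 1.56 (limma adjusted p = 0.00196), and PCF11, which links cleavage to termination, by 1.12 (adjusted p = 0.00548). CPSF1, the largest subunit of its complex, was lower, with a difference of -0.77 (adjusted p = 0.00373). PABPN1, which is also a component gene above, differed by 0.58 (adjusted p = 0.0528).

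Of 7 termination factors, 2 were higher, among them RPRD1A by 1.21 (limma adjusted p = 0.0224), and 0 lower, with 2 at an unadjusted p below 0.05. XRN2, the exonuclease that follows the polymerase after cleavage, differed by -0.08 (adjusted p = 0.858). Of 14 factors of nonsense-mediated decay and the exon junction complex, 5 were higher and 7 lower, with a median of -0.71; UPF1 was lower (-1.68, adjusted p = 0.000981) and UPF2 higher (2.14, adjusted p = 0.00292). These counts stand against 30.2% of all entries higher and 31.7% lower, and 0 factors of the 3 lists passed for any inhibitor in limma, also at an unadjusted p below 0.05. Their part in the levels of the loci was not tested.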

How the data were processed

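The RNA libraries were made with the TruSeq Stranded mRNA kit. The authors aligned reads with TopHat and estimated FPKM with Cufflinks, by the study's methods; the submitters' processing notes list HISAT2 2.2.1.0 and hg19 without a role. The annotation is not given in the sources used here. The deposited FPKM were used as they stand. They hold no counts, so depth is unknown; ChIP-seq samples were not used here.

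Members, gene lists and tests were chosen with earlier results of these data known. Ratios used log2(FPKM + 1). limma 3.58.1 (R 4.3.3) fitted treatment and day to 10865 entries with a mean of at least 1 FPKM, with Benjamini-Hochberg adjustment over all of them. It was tested on simulated data. Sample labels carry no replicate numbers. Exons and junction sequences came from GENCODE 44 on GRCh37 and gene classes from RefSeq (GRCh38), with 65 loci matched by symbol, 20 by synonym and 15 not matched. Python 3.11.15 was used.

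Named were the 10 loci with the highest mean, the 8 with the widest share range, up to 12 with opposite moves and the 5 with the smallest day p; others were added after their values were seen. Alternatives changed the pseudocount, scaling, filter, fold, variance prior, DMSO library, treatment term and libraries.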

Additional observations from a re-analysis of the deposited data

Results flagged for a closer look

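In COMMD3-BMI1 and MUTED-TXNDC5, the NCD38 library lay more than 2-fold above the DMSO library on day 30 and more than 2-fold below it on day 4, on log2(FPKM + 1). COMMD3-BMI1 differed by 1.12 on day 30 and by -1.04 on day 4, where it was listed at 0.0640 FPKM in NCD38 against 1.19 in DMSO. MUTED-TXNDC5 differed by 1.60 on day 30 and by -1.61 on day 4, where it was listed at 8.81e-18 FPKM in NCD38. With 1 library on each side, the difference between the days was not tested. The trio sums of COMMD3-BMI1 differed by 0.08 and -0.76 and those of MUTED-TXNDC5 by 0.05 and -0.61.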

How the results depend on the processing

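Of 441 values recomputed under alternatives, 354 kept their direction and side of the threshold or moved little. No pairing of libraries beyond the treatment was possible because the labels carry no replicate numbers. The day comparison holds each treatment as a term, which sets its libraries of both days against each other; with day alone it gave 7 loci higher and 21 lower.

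The 7 loci higher and 20 lower on day 30 became 2 and 5 with a minimum of 1 FPKM in every library, which leaves 11 loci to test, and 11 and 10 with trio sums. The 5 loci with the smallest day p and RPS10-NUDT3 are not among the loci left by that minimum. Leaving out each library gave 5 to 8 higher and 14 to 20 lower; in the additive fit, leaving out a library of one day also removes its treatment from the day comparison. TM4SF19-TCTEX1D2 did not pass in any of these 8 fits, CHURC1-FNTB and COMMD3-BMI1 in 6, and ATP5J2-PTCD1 and FAM18B2-CDRT4 in 4, while IQCJ-SCHIP1 (-0.55) and MUTED-TXNDC5 (-1.61) passed without an NCD38 library and SLMO2-ATP5E (1.21) without an NCD38-β2PIPP library. Against DMSO, the range was 0 to 0 for each inhibitor. With trio sums the sign turned for C17orf61-PLSCR3 (0.10), ATP5J2-PTCD1 (0.31), FAM18B2-CDRT4 (0.62), IQCJ-SCHIP1 (0.85), CHURC1-FNTB (0.25), ARPC4-TTLL3 (-0.96) and SYS1-DBNDD2 (0.12).

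The counts of loci with a 2-fold difference from DMSO were, for NCD38, NCD38-β2P4 and NCD38-β2PIPP, 22, 20 and 22 on day 30 and 24, 23 and 21 on day 4 when the DMSO library of the other day was used. With that minimum they were 0, 1 and 0 on day 30 and 1, 1 and 1 on day 4. With pseudocounts of 0.1 and 0.01, NCD38-β2P4 on day 30 gave 9 and 10, NCD38-β2PIPP 11 and 13 on day 30 and 6 and 8 on day 4; rescaled by the median ratio, the last gave 0.

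Opposite moves rose from 6 to 35 (pseudocount 0.1), 54 (0.01) and 15 (1.5-fold) for the inhibitors, and from 8 to 19, 25 and 15 between the DMSO libraries. Loci that differed 2-fold with a sum that did not rose from 28 to 120 and 170 for the inhibitors and from 17 to 30 (pseudocount 0.01) between the DMSO libraries. Loci above both component genes were 2 by the mean of day 30 and 7 by that of day 4, in place of 4. A smaller pseudocount lets ratios between values under 1 FPKM count; other causes were not tested. The unknown depth leaves trace values without an error.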
